A study of Mus musculus with 25 samples.

Results

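The 44 collagen genes of the mouse were followed through melanomas that were untreated, regressing, residual or resistant on a BRAF inhibitor. They are all gene symbols of the expression table that consist of Col, a number, the letter a and a number, and they make up 44 of the 23940 symbols measured. RNA was sequenced from 25 biopsies of tumors grown in C57BL/6 mice from YUMM1.7, a mouse melanoma line that carries mutant Braf. All groups share this one line. In batch 1, 4 tumors were untreated (Veh), 4 were regressing on the inhibitor (Reg), 5 were residual or cytostatic on it (Res) and 5 had become resistant to it (Prog). In the libraries that the labels mark as batch 2, 3 tumors were resistant to the inhibitor (Prog_b2), 2 were residual on the inhibitor combined with an antibody against PD-L2 (aPDL2_small, here the small tumors) and 2 were resistant to that combination (aPDL2_large, the large tumors). Neither the inhibitor's name nor its dose is given in the sources used here, and the labels count tumors without saying whether each came from its own mouse, so that p-values measure the spread between these samples, part of which may be technical. Levels are FPKM, fragment counts that the authors scaled by transcript length and library size before deposit. Levels are given per library in the order of the replicate numbers. Changes are differences of log2(FPKM + 1) ± SE from limma, with Benjamini-Hochberg adjusted p-values taken over every gene in the fit, and a gene was called at an adjusted p under 0.05. Such log2 changes understate the change of genes with low FPKM.

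Collagens are triple-helical proteins of the extracellular matrix, and each collagen type is assembled from 1 or more chains with a gene of its own. Fibrillar collagens form the tensile fibers of skin and stroma, type IV collagens the sheet under epithelia and around vessels, and the FACIT collagens sit on fibril surfaces, while other types form beaded filaments, anchoring fibrils or hexagonal networks, or span the cell membrane. In skin and in melanomas most fibrillar collagen comes from fibroblasts, but melanoma cells, endothelial cells, pericytes, Schwann cells and keratinocytes each make collagen chains too. Chains need hydroxylation and folding helpers before secretion, propeptide cleavage and crosslinking after it, and receptors through which cells sense them. By structural class, the 44 genes comprised 11 fibrillar, 9 FACIT, 6 beaded filament, 6 basement membrane (type IV), 2 multiplexin, 3 network, 1 anchoring fibril and 4 transmembrane chains and 2 others.

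The stretches upstream of 4 collagen genes are shown because these genes carried the largest rises and the largest falls of Prog against Veh. Col4a5 and Col4a6, which encode type IV chains, fell together and are transcribed away from each other from annotated starts 1343 bases apart, while Col23a1, a transmembrane collagen, and Col7a1, the anchoring fibril chain, showed the largest rises. The sequences come from RefSeq on GRCm38.p6, whereas the authors' reads were mapped to mm9. Each is the 250 bases before the annotated start, 5′ to 3′ on the gene's strand, except that 216 bases are printed for Col4a5 because the bases after them lie in an annotated exon. Capitals mark matches, on either strand, to CCAAT, a string bound by NF-Y, or to GGGCGG, bound by SP factors. Col4a5 is at chrX:141475169-141475384 on the plus strand, Col4a6 at chrX:141474077-141474326 on the minus strand, Col23a1 at chr11:51289670-51289919 on the plus strand and Col7a1 at chr9:108953336-108953585 on the plus strand.
Col4a5: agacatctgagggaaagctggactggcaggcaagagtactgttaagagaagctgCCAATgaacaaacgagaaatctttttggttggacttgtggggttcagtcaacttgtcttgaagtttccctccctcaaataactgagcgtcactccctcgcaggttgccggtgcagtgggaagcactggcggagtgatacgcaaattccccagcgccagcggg
Col4a6: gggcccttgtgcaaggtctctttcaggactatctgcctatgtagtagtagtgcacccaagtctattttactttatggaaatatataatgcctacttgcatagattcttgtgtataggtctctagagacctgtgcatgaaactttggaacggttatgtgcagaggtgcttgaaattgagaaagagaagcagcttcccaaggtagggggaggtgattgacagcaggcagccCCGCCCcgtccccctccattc
Col23a1: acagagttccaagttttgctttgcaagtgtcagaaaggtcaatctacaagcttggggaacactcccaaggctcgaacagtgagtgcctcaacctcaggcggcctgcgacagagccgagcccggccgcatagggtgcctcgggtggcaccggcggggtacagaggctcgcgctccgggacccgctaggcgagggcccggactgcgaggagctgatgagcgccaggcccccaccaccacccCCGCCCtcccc
Col7a1: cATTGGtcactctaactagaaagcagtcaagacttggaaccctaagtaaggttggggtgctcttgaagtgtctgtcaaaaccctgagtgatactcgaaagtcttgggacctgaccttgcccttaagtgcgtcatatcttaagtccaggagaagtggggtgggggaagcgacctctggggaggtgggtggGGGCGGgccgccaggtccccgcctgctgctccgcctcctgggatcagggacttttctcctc
TATAAA and TGANTCA (the string bound by AP-1) were also searched on both strands and matched none of these 4 stretches. Over all 32851 annotated windows of 250 bases, CCAAT was present in 33.8%, GGGCGG in 32.7%, TATAAA in 12.4% and TGANTCA in 6.75%. A window was found for 35 of the 44 collagen genes, some with more than 1 start. Among their 38 windows 13 held CCAAT, 22 GGGCGG, 5 TATAAA and 1 TGANTCA. None was found for Col12a1, whose rise in Prog against Veh came next after those of Col23a1 and Col7a1. The other type IV pair, Col4a1 and Col4a2, also lies head to head, with annotated starts 21 bases apart and overlapping first exons. Since the libraries were unstranded, fragments from an overlap of this kind cannot be assigned to one gene of the pair by strand.

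Several libraries stood apart in ways that touch these genes. Keratinocyte markers (12 genes, summed FPKM) reached 1583 in Veh 1, 403 in Veh 3 and 751 in Res 1 and were at most 39.5 elsewhere, so the main counts are also given without those 3 libraries. Skeletal muscle markers (11 genes) summed to 79.1 to 1047 in Res against 6.06 to 114 in Veh and 3.69 to 45.9 in Prog. Fibroblast markers (12 genes, none at 0 in all libraries of any group) summed to 357 to 754 in Veh, 637 to 1178 in Reg, 1111 to 2240.2 in Res and 489 to 673 in Prog, and in Res against Veh 5 of the 12 were called higher and none lower. In 9 batch 1 columns many values had 1 digit more than in the rest, as means of a pair of values would. Sequencing depth is unknown, since FPKM carry no counts.

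The collagen genes spanned a wide range of levels, and a few fibrillar chains made up most of the collagen signal. Of the 44, 18 were at 1 FPKM or more in all 25 libraries, 33 reached 1 FPKM in at least 1 library and 17 reached 100 FPKM, while 11 were under 1 FPKM in every library (Col11a2, Col4a3, Col4a4, Col6a4, Col9a1, Col9a3, Col19a1, Col20a1, Col22a1, Col25a1 and Col26a1). The summed FPKM of all 44 was 3645 to 4194 in Veh and 3378 to 4249 in Reg, and 5353 to 7707 in Res and 5179.5 to 7798 in Prog. Every Res and every Prog library was thus above every Veh and Reg library in summed collagen. The make-up of that sum differed between these groups: fibrillar chains held 56.8 to 59.6% of it in Veh, 65.8 to 71.5% in Res and 46.6 to 59.7% in Prog, and beaded filament chains 16.4 to 18.7%, 11.9 to 16.7% and 20.9 to 30.0%. These bulk libraries do not tell a change in the number of cells of a type from a change of RNA per cell, here or in the results that follow.

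**Figure D1:**
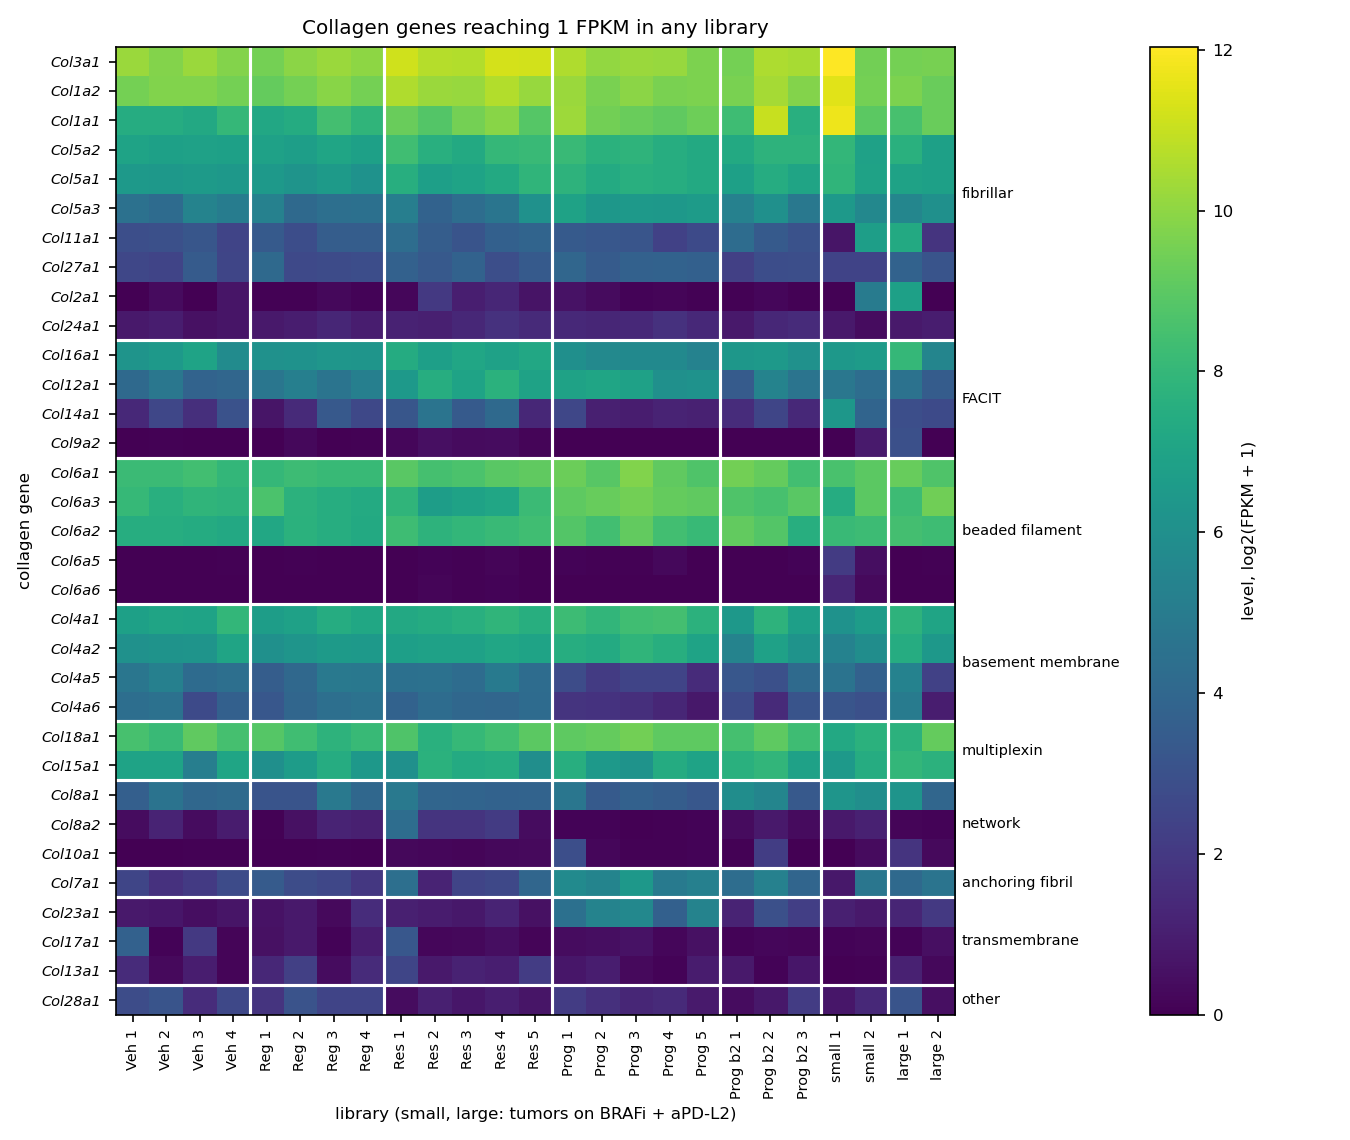
Level of the 33 collagen genes that reached 1 FPKM in any library, as log2(FPKM + 1) by color, with genes as rows sorted by structural class and the 25 libraries as columns (white lines separate classes and groups). Col3a1, Col1a2 and Col1a1 are the brightest rows, Col23a1 and Col7a1 are high in the Prog columns where Col4a5 and Col4a6 are low, and Col2a1 is high in 1 small and 1 large tumor of batch 2.

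Genes with a mean of at least 1 FPKM over the 18 batch 1 libraries were tested, which left 28 of the 44 collagen genes. Of these 28, 3 (Col23a1, Col8a2 and Col17a1) passed only through their highest group and so could enter the test only by being high somewhere. In Res against Veh, 14 collagen genes were called higher and 1 lower, where 20.4% of the 12210 genes tested were called higher and 25.1% lower (45.5% either way). In Prog against Veh, 14 were called higher and 4 lower, against 25.2% and 21.1% of all genes (46.3% either way). In both comparisons the share of collagen genes called higher was larger than that of all genes. These counts include Col8a2 in Res and Col23a1 in Prog, each of which passed the filter only through that same group. The median change of the 28 was 0.64 in Res and 0.65 in Prog against Veh, beside -0.03 and 0.01 over all genes tested. Without the 3 libraries high in keratinocyte markers, 12 collagen genes were called in Res and 16 in Prog against Veh, over both directions. Both comparisons use the same 4 Veh libraries, so their values are set side by side only. No collagen gene was called by limma in Reg against Veh, where 2 of all genes (0.0164%) were called and 1364 had an unadjusted p under 0.05. In that comparison the median change was -0.03 for the 28 collagen genes and 0.02 over all genes, and their changes ran from -0.90 ± 0.72 for Col17a1 to 0.76 ± 0.29 for Col12a1.

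**Figure D2:**
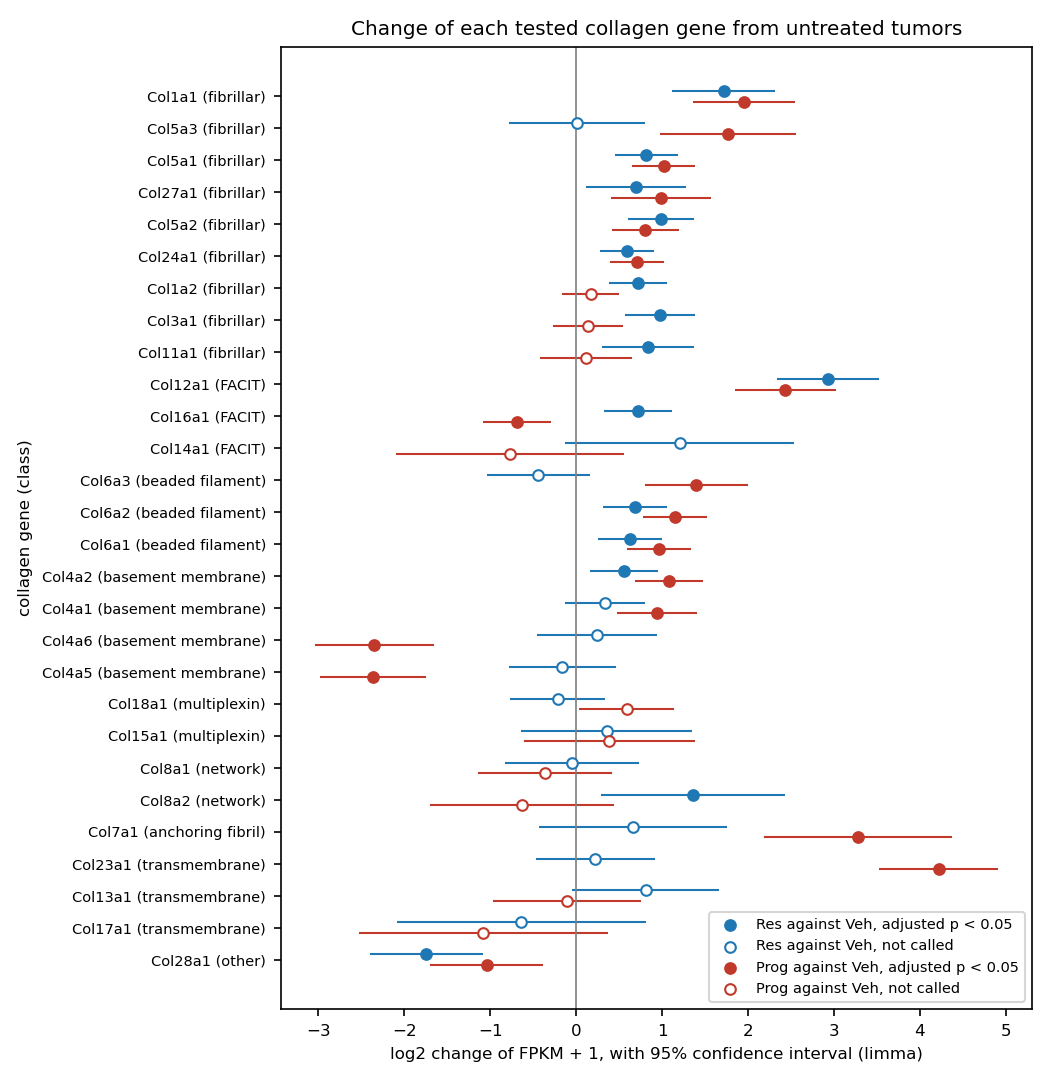
Change of each of the 28 tested collagen genes from untreated tumors in residual (blue) and resistant (red) tumors of batch 1, as the difference of log2(FPKM + 1) with its 95% confidence interval, filled where the adjusted p was under 0.05. The fibrillar chains apart from Col5a3 lie to the right of 0 in Res, Col4a5 and Col4a6 lie far left in Prog alone, and Col12a1 lies far right in both.

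Fibrillar collagens rose in residual tumors, and a part of them rose in resistant tumors of batch 1. Of the 11 chains 9 were tested, and 8 were called higher in Res than in Veh (median change 0.82) and 6 in Prog (median 0.81), with none lower. Col1a1, the α1 chain of type I collagen, was at 172, 176, 153 and 260.1 FPKM in the 4 Veh libraries and 147, 171, 341 and 237 in Reg. It was at 621, 447, 722, 937 and 464 in Res and 1226, 707, 631, 546 and 662 in Prog. All 10 Res and Prog libraries were above all 8 Veh and Reg libraries, with changes from Veh of 1.72 ± 0.28, adjusted p = 0.000173, in Res and 1.95 ± 0.28, adjusted p = 8.38e-05, in Prog. Col1a2, the α2 chain of the same heterotrimer, was at 740.3, 856, 862 and 732 in Veh and 1535, 1177, 1143, 1627 and 1162 in Res, groups that do not overlap, and rose by 0.72 ± 0.16, adjusted p = 0.00172. In Prog it was at 1204, 776, 969.8, 771 and 817, overlapping Veh, with a change of 0.17 ± 0.16, adjusted p = 0.396. Col3a1, the type III chain that co-assembles with type I fibrils in skin, showed the same order of groups as Col1a2. It was at 1183, 900.3, 1203 and 904 in Veh, 2317, 1637, 1597, 2478 and 2385 in Res and 1574, 1085, 1187, 1154 and 819 in Prog. The Res libraries all lay above both other groups, the change from Veh was 0.98 ± 0.19, adjusted p = 0.000799, in Res and 0.13 ± 0.19, adjusted p = 0.585, in Prog, and Prog was below Res (-0.84 ± 0.18, adjusted p = 0.000616).

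The ratio of the 2 type I chains therefore differed between groups. Col1a1 over Col1a2, both per transcript length, was 0.177 to 0.355 in Veh, 0.237 to 0.362 in Reg, 0.380 to 0.631 in Res and 0.651 to 1.02 in Prog, so that Veh, Res and Prog did not overlap. Col3a1 over Col1a1 was 3.48 to 7.88 in Veh and 1.24 to 2.12 in Prog. These ratios were computed after the levels had been seen and carry no test. The difference between Prog and Res was called for Col1a2 (-0.55 ± 0.15, adjusted p = 0.0034) and not for Col1a1 (0.24 ± 0.26, adjusted p = 0.43, 95% confidence interval -0.32 to 0.80); the Col1a2 call was lost when all 25 libraries were fitted together, at an adjusted p of 0.0586.

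Type V chains, which nucleate type I fibrils and set their diameter, rose too. Col5a1 was at 90.8, 84.6, 94.1 and 85.7 FPKM in Veh, 184, 111, 125, 159 and 233 in Res and 221, 165, 189.7, 178 and 156 in Prog. Every Res and Prog library was above every Veh library, with changes of 0.82 ± 0.17, adjusted p = 0.00133, in Res and 1.02 ± 0.17, adjusted p = 0.000287, in Prog. Col5a2 went from a mean of 118 ± 5.67 (SD, n = 4) in Veh to 242 ± 66.2 (n = 5) in Res and 210.2 ± 46.0 (n = 5) in Prog, changes of 0.99 ± 0.18, adjusted p = 0.000477, and 0.81 ± 0.18, adjusted p = 0.00225. The third chain of the type, Col5a3, followed another course. Its level was 21.8, 17.3, 40.7 and 32.7 in Veh, 34.1, 12.7, 18.7, 24.8 and 68.1 in Res and 121, 81.8, 88.0, 84.0 and 96.9 in Prog. All 5 Prog libraries were above all Veh and Res libraries, with changes of 1.77 ± 0.37, adjusted p = 0.00135, and, against Res, 1.76 ± 0.35, adjusted p = 0.000317, whereas Res and Veh overlapped (0.01 ± 0.37, adjusted p = 0.982). Col11a1, the type XI chain that replaces type V chains in cartilage and in some stromal fibrils, was at 4.50 to 8.34 in Veh, 7.61 to 18.8 in Res and 4.04 to 9.75 in Prog. Its rise in Res (0.84 ± 0.25, adjusted p = 0.0128) had an adjusted p of 0.0526 without Veh 4 and 0.474 in a fit of all 25 libraries. Col24a1 and Col27a1, low fibrillar chains at no more than 2.32 and 16.1 FPKM, were also called higher in both groups. Col2a1, the cartilage chain, was too low for the test in batch 1, at 0.0103 to 0.618 in Veh and 0.162 to 2.95 in Res. The fibroblast marker sum was higher in Res than in Veh and overlapped between Veh and Prog, as given above. Macrophage markers (9 genes) summed to 57.1 to 246 in Veh, 358 to 735 in Res and 98.7 to 154 in Prog, and 8 of the 9 were called higher in Res than in Veh. Pericyte and smooth muscle markers (10 genes, 8 tested) summed to 73.3 to 107 in Veh, 127 to 239.7 in Res and 87.8 to 175 in Prog, with 3 called higher in Res. Of 8 melanocyte lineage genes the 3 tested were all called higher in Res, with sums of 5.02 to 9.98 in Veh and 12.5 to 34.5 in Res. Of 13 cartilage and bone markers 4 were tested and 3 of them were called higher in Prog than in Veh. The sums of this list were 1220.4 to 5394 in Veh and 5325 to 7829 in Prog. Spp1 was its most abundant gene, and the sum was 103 in Prog_b2 1, which had no measured Spp1. The part of these marker lists in the fibrillar results was not tested.

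**Figure D3:**
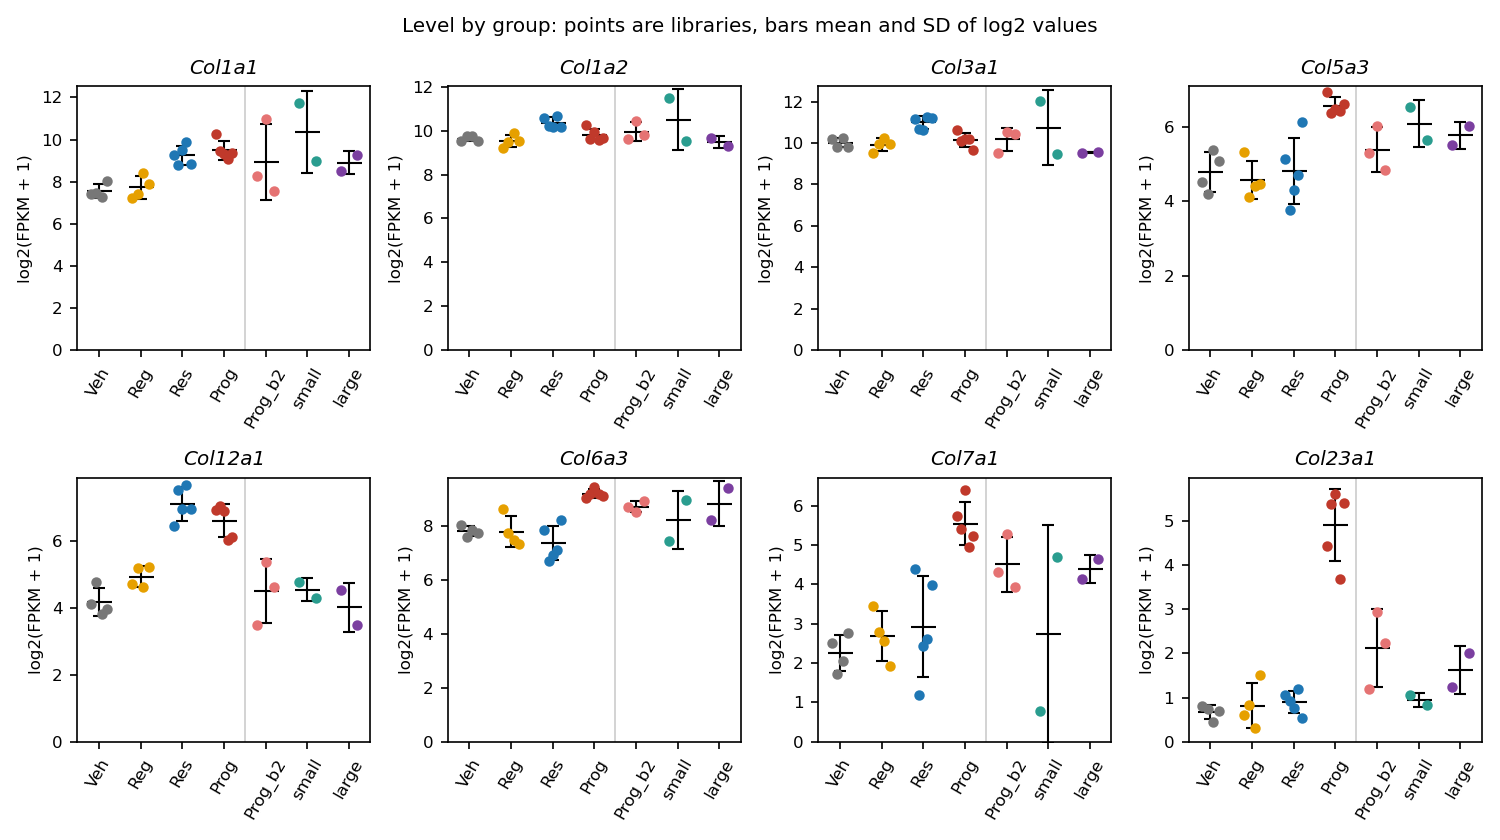
Level of 8 collagen chains by group, as log2(FPKM + 1), with libraries as points and the mean and SD of the log2 values as black bars; the grey line separates batch 1 from batch 2. Col1a1 and Col12a1 are high in Res and Prog, Col1a2 and Col3a1 are highest in Res, and Col5a3, Col6a3, Col7a1 and Col23a1 are highest in Prog among the batch 1 groups.

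Among the FACIT collagens Col12a1 showed the largest rise of any collagen gene in residual tumors. Of the 9 FACIT chains 3 were tested. Col12a1, which coats type I fibrils in tissues under tension, was at 16.3, 26.7, 13.2 and 14.8 FPKM in Veh and 25.4, 35.4, 23.8 and 36.2 in Reg. It was at 86.0, 182, 123, 204 and 123 in Res and 122, 132, 119, 64.8 and 69.2 in Prog. No Res or Prog library came down to the Veh or Reg levels, and the changes from Veh were 2.93 ± 0.28, adjusted p = 5.72e-07, in Res and 2.43 ± 0.28, adjusted p = 1.45e-05, in Prog. Against Reg the rises were 2.17 ± 0.28, adjusted p = 2.24e-05, and 1.67 ± 0.28, adjusted p = 0.00032. Prog was not called against Res (-0.50 ± 0.26, adjusted p = 0.0988), and this became a call without Res 1, at an adjusted p of 0.0303. Col16a1, found in skin and linked to both fibrils and microfibrils, moved in opposite directions in the 2 groups. It was at 74.6, 86.0, 125 and 55.7 in Veh, 170.4, 110.3, 136, 117 and 149 in Res and 63.6, 50.4, 50.6, 51.5 and 39.4 in Prog. Every Prog library was below every Res library (-1.40 ± 0.18, adjusted p = 4.12e-06), while against Veh the groups overlapped, with 0.72 ± 0.19, adjusted p = 0.00568, in Res and -0.68 ± 0.19, adjusted p = 0.00746, in Prog. Col14a1, a chain of mature dermal fibrils, was at 1.58, 4.87, 2.13 and 7.15 in Veh, 8.34, 24.1, 9.71, 16.5 and 1.51 in Res and 4.85, 1.11, 0.927, 1.32 and 1.15 in Prog. Its change in Res was not called (1.2 ± 0.63, adjusted p = 0.128) but would be without Res 5, at an adjusted p of 0.017, and Prog was below Res (-1.97 ± 0.59, adjusted p = 0.0069).

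The type IV collagens of basement membranes split into pairs in the resistant tumors of batch 1: Col4a1 and Col4a2 rose, and Col4a5 and Col4a6 fell. The α1 and α2 chains form the network found in every basement membrane, and the α5 and α6 chains form a second one in skin and smooth muscle. Col4a5 was at 25.1, 36.3, 17.5 and 19.9 FPKM in Veh, 10.6, 15.9, 27.9 and 26.8 in Reg and 20.6, 21.7, 18.2, 28.9 and 17.9 in Res. In Prog it was at 5.90, 3.21, 4.58, 4.61 and 1.80. Every Prog library was below every other batch 1 library, and the changes were -2.37 ± 0.29, adjusted p = 2.71e-05, against Veh, -2.05 ± 0.29, adjusted p = 0.000112, against Reg and -2.21 ± 0.28, adjusted p = 3.88e-06, against Res. Col4a6, its neighbor on the X chromosome, was at 19.1, 21.5, 5.42 and 12.01 in Veh, 8.60, 14.8, 20.02 and 22.6 in Reg and 12.9, 17.9, 15.1, 14.9 and 17.2 in Res. In Prog it was at 2.50, 2.35, 2.10, 1.45 and 0.727. It too was lower in all Prog libraries than in any other of batch 1, with changes of -2.35 ± 0.33, adjusted p = 6.91e-05, against Veh, -2.60 ± 0.33, adjusted p = 4.27e-05, against Reg and -2.59 ± 0.31, adjusted p = 2.48e-06, against Res. Neither gene was called in Res against Veh (-0.16 ± 0.29, adjusted p = 0.681, for Col4a5 and 0.25 ± 0.33, adjusted p = 0.562, for Col4a6).

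Col4a1 was at 113, 130.2, 124 and 248 FPKM in Veh, 150.4, 169.6, 192, 231 and 187 in Res and 305, 241, 328, 349.9 and 209.9 in Prog. The groups overlapped through Veh 4, the highest Veh library, and the change in Prog was 0.94 ± 0.22, adjusted p = 0.00274, which lost its call, at an adjusted p of 0.068, without the 3 libraries high in keratinocyte markers. In Res the change was 0.33 ± 0.22, adjusted p = 0.226, and it would be called without Veh 4, at an adjusted p of 0.0227. Col4a2 was at 66.1, 71.8, 73.0 and 129.5 in Veh, 109.6, 118, 116, 136 and 126 in Res and 179.8, 164, 231, 188 and 127 in Prog, again with Veh 4 far above the other 3. It rose by 1.08 ± 0.19, adjusted p = 0.000323, in Prog and by 0.56 ± 0.19, adjusted p = 0.0227, in Res. The Res call was lost without Res 4 (adjusted p = 0.0501), Veh 1 (0.0768), Veh 2 (0.065) or Veh 3 (0.064) and without the 3 libraries high in keratinocyte markers (0.261). Col4a1 over Col4a2 was 1.25 to 2.08 over all libraries, with 1.696 to 1.92 in Veh and 1.42 to 1.86 in Prog. Col4a1 over Col4a5 was 3.59 to 12.5 in Veh, 7.29 to 10.5 in Res and 51.7 to 116 in Prog. Col4a3 and Col4a4, the chains known from kidney, eye and ear, were at most 0.0522 FPKM in every library. Endothelial markers (12 genes, none at 0 throughout a group) summed to 47.8 to 104 in Veh, 109 to 247 in Res and 152 to 179.8 in Prog. In Prog against Veh 2 of the 12 were called higher and 7 lower, and in Res 11 were called higher. Their part in the type IV levels was not tested.

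**Figure D4:**
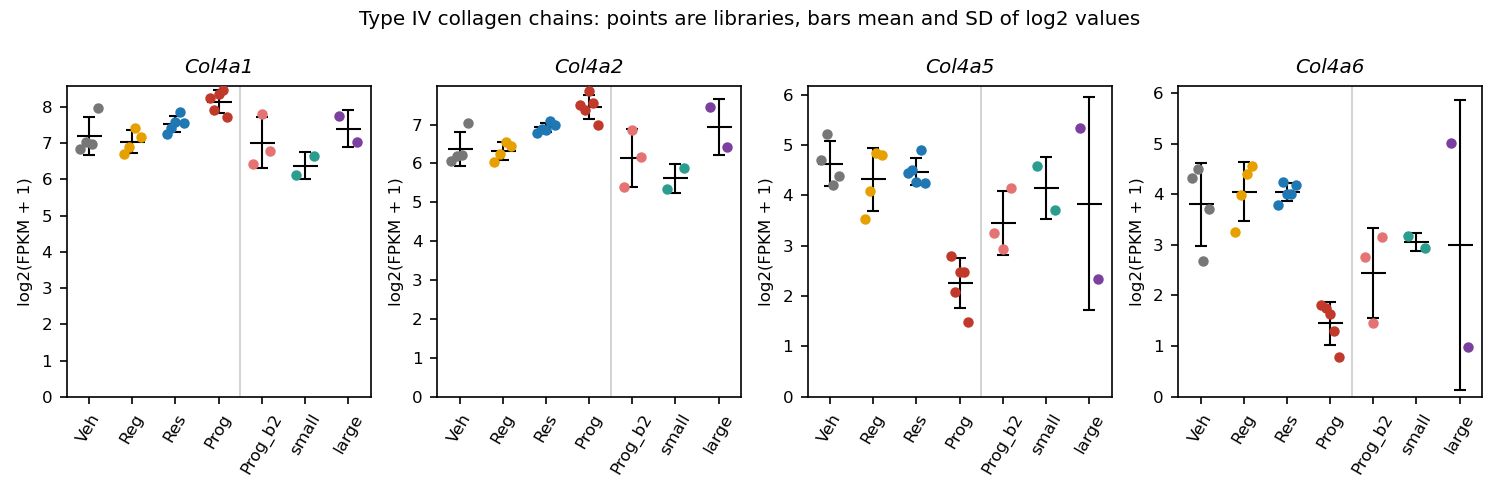
Level of the 4 detected type IV collagen genes by group, as log2(FPKM + 1), with libraries as points and the mean and SD of the log2 values as black bars; the grey line separates the batches. In Prog, Col4a1 and Col4a2 are at their highest batch 1 levels and Col4a5 and Col4a6 at their lowest.

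The main chains of type VI collagen, which forms beaded filaments around cells, rose in resistant tumors: 3 of the 6 chains were tested, all 3 were called higher in Prog than in Veh, and 2 in Res. Col6a1 was at 294, 294, 338 and 247 FPKM in Veh, 491, 358, 391, 492 and 549 in Res and 642, 472, 861, 539.7 and 427 in Prog. All Res and Prog libraries were above all Veh libraries, by 0.63 ± 0.17, adjusted p = 0.00814, and 0.96 ± 0.17, adjusted p = 0.000464. Col6a2 had means of 171 ± 11.9 in Veh (SD, n = 4), 279 ± 45.1 in Res (n = 5) and 394 ± 117 in Prog (n = 5), changes of 0.69 ± 0.18, adjusted p = 0.00505, and 1.15 ± 0.18, adjusted p = 0.00013. Col6a3, whose long α3 chain carries the cleaved C-terminal peptide endotrophin, did not follow the other 2 in residual tumors. It was at 263, 191, 233 and 216 in Veh, 229.9, 104, 122, 139.7 and 299 in Res and 535, 593, 706, 588 and 554 in Prog. The Prog libraries were all above the Veh and Res libraries (1.40 ± 0.28, adjusted p = 0.00107, and 1.84 ± 0.27, adjusted p = 1.69e-05). Res overlapped Veh with a change of -0.44 ± 0.28, adjusted p = 0.216, and without Res 5 the decrease was called, at an adjusted p of 0.0449. Col6a3 over Col6a1 was 0.651 to 0.895 in Veh, 0.284 to 0.543 in Res and 0.820 to 1.30 in Prog. The call of Col6a2 between Prog and Res (0.47 ± 0.17, adjusted p = 0.0192) was lost without Prog 1 (adjusted p = 0.0514), Prog 3 (0.0598) or Res 2 (0.0585).

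Col7a1 and Col23a1 had the largest rises of resistant tumors. Col7a1 is the only chain of type VII collagen, whose anchoring fibrils tie the epidermal basement membrane to the dermis. It was at 4.66, 2.32, 3.17 and 5.82 FPKM in Veh, 9.99, 5.97, 4.93 and 2.82 in Reg and 20.1, 1.29, 4.45, 5.17 and 14.7 in Res. In Prog it was at 52.9, 41.7, 83.4, 29.9 and 36.7, above every other batch 1 library, with changes of 3.28 ± 0.52, adjusted p = 0.000161, against Veh and 2.62 ± 0.49, adjusted p = 0.000165, against Res. The change in Res was not called (0.66 ± 0.52, adjusted p = 0.31), and its highest library, Res 1, was one of those high in keratinocyte markers. Res 5, at 14.7, had a keratinocyte marker sum of 6.00. Veh 1 and Veh 3, also high in those markers, were at 4.66 and 3.17. The keratinocyte marker sum was 2.19 to 1583 in Veh and 2.76 to 4.30 in Prog, and the part of these markers in the Col7a1 levels was not tested. Col23a1, a transmembrane collagen that can be shed from the cell surface, was at 0.753, 0.681, 0.374 and 0.621 in Veh, 0.513, 0.793, 0.240 and 1.85 in Reg and 1.09, 0.902, 0.708, 1.30 and 0.459 in Res. In Prog it was at 20.6, 40.3, 47.4, 11.9 and 41.0. No Prog library came near the highest of the other groups, and the changes were 4.22 ± 0.33, adjusted p = 5.39e-07, against Veh and 3.99 ± 0.31, adjusted p = 4.94e-08, against Res; the gene passed the filter on low values only through this group.

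Of the other transmembrane chains, Col17a1, the hemidesmosome collagen of basal keratinocytes, was at 12.5, 0.0981, 2.94 and 0.126 FPKM in Veh and 8.67, 0.158, 0.184, 0.358 and 0.134 in Res. Its high values fell in the 3 libraries with high keratinocyte markers, and it was not called in any comparison of batch 1. Col13a1, a transmembrane collagen of cell adhesions, was at 0.768 to 4.70 in Res and 0.0940 to 0.976 in Prog, and was called lower in Prog (-0.91 ± 0.38, adjusted p = 0.0416). Among the multiplexins, the basement membrane collagens that release endostatin-like fragments, Col18a1 was at 374, 281, 544 and 358 in Veh, 422, 196, 262, 333 and 507 in Res and 532, 581, 707, 522 and 527 in Prog. Prog exceeded every Res library (0.81 ± 0.25, adjusted p = 0.00768) and overlapped Veh (0.59 ± 0.26, adjusted p = 0.0737), the latter reaching an adjusted p of 0.0303 without Veh 3. Col15a1 had means of 104 ± 46.7 in Veh, 134 ± 67.5 in Res and 129 ± 49.6 in Prog (SD, n = 4, 5 and 5), and no change was called. Of the network chains, Col8a1, made by vessel walls and other tissues, was at 11.3 to 22.8 in Veh, 12.6 to 28.3 in Res and 8.55 to 25.7 in Prog, with no call. Its partner Col8a2 was at 18.4, 2.54, 2.55, 3.24 and 0.329 in Res and 0.0318 to 0.101 in Prog. Every Prog library was below every Res library (-1.99 ± 0.48, adjusted p = 0.00141). Col8a2 was at 0.309, 1.27, 0.327 and 0.907 in Veh and 0.0351, 0.448, 1.26 and 1.11 in Reg. It was called higher in Res than in either, though Res 5 overlapped both. The gene passed the filter only through Res, where Res 1 was far above the rest. Col10a1, the chain of hypertrophic cartilage, was at 6.43 in Prog 1 and at most 0.223 in the other batch 1 libraries. Col28a1, a chain known from peripheral nerve, was at 5.99, 7.83, 1.93 and 5.03 in Veh, 2.46, 7.36, 4.49 and 4.56 in Reg and 0.334, 1.10, 0.650, 1.01 and 0.601 in Res. All Res libraries were below all Veh and Reg libraries, with changes of -1.74 ± 0.31, adjusted p = 0.000352, and -1.67 ± 0.31, adjusted p = 0.000734. In Prog Col28a1 was at 3.39, 2.22, 1.45, 1.69 and 0.834, and was also called lower than in Veh (-1.04) and Reg (-0.97). The Schwann cell marker sum (9 genes) was 84.5 to 175 in Res and 38.8 to 55.9 in Veh, and its part in the Col28a1 levels was not tested.

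The remaining batch 1 comparisons gave the following counts. In Res against Reg 11 of the 28 collagen genes were called higher and 1 lower, beside 13.9% and 22.5% of all genes (36.4% either way), with a median change of 0.36 against -0.04 over all genes. Among called genes whose libraries did not overlap, the rises were led by Col12a1 and Col1a1 (1.53 ± 0.28, adjusted p = 0.000657). Col3a1 (1.07 ± 0.19, adjusted p = 0.000553) followed them. Col5a2 (0.99 ± 0.18, adjusted p = 0.000694), Col5a1 (0.95 ± 0.17, adjusted p = 0.0006) and Col16a1 (0.88 ± 0.19, adjusted p = 0.00188) came next among those whose libraries did not overlap. The Col4a2 call there (0.60 ± 0.19, adjusted p = 0.0188) was lost without Reg 1, at an adjusted p of 0.07. In Prog against Reg 14 were called higher and 4 lower, beside 24.3% and 24.1% of all genes (48.4% either way), led by Col23a1 (4.08 ± 0.33, adjusted p = 7.8e-07) and Col7a1 (2.86 ± 0.52, adjusted p = 0.000572). Col5a3 (1.99 ± 0.37, adjusted p = 0.000729), Col1a1 (1.76 ± 0.28, adjusted p = 0.000242) and Col6a3 (1.41 ± 0.28, adjusted p = 0.00113) also rose with no overlap between the groups. The fall of Col16a1 in that comparison (-0.52 ± 0.19, adjusted p = 0.0325) was lost without any of Prog 2, 3 or 5 or Reg 2, 3 or 4, at adjusted p of 0.0517 to 0.0823. In Prog against Res 9 were called higher and 9 lower, a share below that of all genes, of which 40.0% were called higher and 32.4% lower (72.4% either way), and the median changes were 0.07 for the collagen genes and 0.08 for all. The collagen genes called higher were Col23a1, Col7a1, Col6a3, Col5a3, Col18a1, Col28a1, Col4a1, Col4a2 and Col6a2, and those called lower were Col4a6, Col4a5, Col8a2, Col14a1, Col16a1, Col13a1, Col3a1, Col11a1 and Col1a2. In the fit of all 25 libraries the calls of Col11a1 (adjusted p = 0.455), Col4a2 (0.0609), Col6a2 (0.0717) and Col1a2 were lost.

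Genes that make, crosslink, bind, degrade and sense collagen were read as 5 lists. Of all genes tested, 20.4% were called higher and 25.1% lower in Res against Veh, and 25.2% and 21.1% in Prog against Veh. In Prog against Res these shares were 40.0% and 32.4%. Of 20 hydroxylases, chaperones and export genes 18 were tested: 2 were called higher in Res than in Veh, 9 were higher and 1 lower in Prog than in Veh, and 8 were higher and 2 lower in Prog than in Res. The member called lower in Prog was P4ha3, a catalytic subunit of prolyl 4-hydroxylase, at 7.97, 13.6, 16.3 and 8.01 FPKM in Veh and 3.23, 1.30, 1.94, 1.77 and 2.19 in Prog (-1.98 ± 0.34, adjusted p = 0.000343). The subunit P4ha1 was higher in Prog than in Res (1.26 ± 0.25, adjusted p = 0.000323), as was Plod2, the lysyl hydroxylase of collagen telopeptides, at 46.6, 11.9, 13.0, 20.2 and 62.3 in Res and 82.0, 67.6, 92.7, 156 and 102 in Prog (1.91 ± 0.38, adjusted p = 0.000326). Fkbp14, a prolyl isomerase of the secretory pathway, rose in both groups against Veh (0.59 ± 0.13, adjusted p = 0.00191, in Res and 0.76 ± 0.13, adjusted p = 0.000348, in Prog). Mia3, which exports procollagen, is listed at 0 in all libraries.

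Of 13 genes for propeptide cleavage and crosslinking 9 were tested. Of these, 3 were called higher and 2 lower in Res and 4 higher and 1 lower in Prog, both against Veh. In Prog against Res 4 were higher and 3 lower. Of all genes, 45.5% were called either way in Res against Veh, 46.3% in Prog against Veh and 72.4% in Prog against Res. The count for Prog against Res lay near that share. Bmp1, the procollagen C-proteinase, was at 70.9, 55.1, 52.1 and 65.3 in Veh and 125, 140.1, 112, 132 and 142 in Prog (1.09 ± 0.16, adjusted p = 0.000115). The crosslinking enzyme Loxl1 rose in Res (0.56 ± 0.12, adjusted p = 0.00182) and fell in Prog (-0.53 ± 0.12, adjusted p = 0.00272), while Lox rose in Prog (1.64 ± 0.38, adjusted p = 0.00283). The N-proteinase gene Adamts14 fell in Res (-1.11 ± 0.28, adjusted p = 0.00464) and was higher in Prog than in Res (1.92 ± 0.26, adjusted p = 9.66e-06). Of 16 fibril-binding matrix proteins 13 were tested. In Res 10 were called higher than in Veh and none lower, in Prog 3 were higher and 2 lower, and none was higher and 8 were lower in Prog than in Res. Periostin (Postn), which binds type I collagen and assists crosslinking, was at 189, 304, 149 and 237 in Veh, 856, 1404, 1749, 2209.5 and 476 in Res and 518, 307, 348, 343 and 181 in Prog (2.46 ± 0.42, adjusted p = 0.000221, in Res and -1.86 ± 0.39, adjusted p = 0.000484, in Prog against Res). The fibril-associated proteoglycan Ogn was at 65.0, 72.9, 41.7, 132 and 55.4 in Res and 2.66, 1.64, 4.43, 1.53 and 0.820 in Prog (-4.53 ± 0.41, adjusted p = 2.29e-07), and Thbs1, a matricellular protein, rose in both groups against Veh (2.40 ± 0.30, adjusted p = 1.18e-05, in Res and 2.38 ± 0.30, adjusted p = 2.96e-05, in Prog). Dcn and Lum belong to this list and to the fibroblast markers.

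Of 18 genes of collagen breakdown 16 were tested: 5 were called higher and 2 lower in Res than in Veh, 8 higher and 1 lower in Prog than in Veh, and 6 each way in Prog against Res. Mmp2 and Mmp14, proteases that degrade denatured and fibrillar collagen, rose in Res (1.42 ± 0.22, adjusted p = 0.000104, and 0.89 ± 0.15, adjusted p = 0.000218). Mmp9, a type IV collagenase, was at 46.5, 52.4, 16.7 and 76.0 in Veh, 47.3, 21.1, 13.6, 14.5 and 39.0 in Res and 396, 389, 199.7, 336 and 389 in Prog, where it exceeded both (2.95 ± 0.45, adjusted p = 0.000132, and 3.74 ± 0.43, adjusted p = 1.59e-06). Of 11 collagen receptors 9 were tested: 1 was called higher in Res than in Veh, 2 higher and 1 lower in Prog than in Veh, and 3 higher and 4 lower in Prog than in Res. Itga2, a collagen-binding integrin subunit, was at 2.46, 1.54, 1.48 and 2.03 in Veh, 2.28, 0.882, 0.594, 1.42 and 2.20 in Res and 6.99, 6.93, 11.8, 8.13 and 17.3 in Prog, with no overlap between Prog and either (1.90 ± 0.25, adjusted p = 4.53e-05, against Veh). Its partner Itgb1 also rose (0.92 ± 0.15, adjusted p = 0.000274). Gpr56, an adhesion receptor that binds type III collagen, was higher in Res than in Veh (1.24 ± 0.24, adjusted p = 0.000786) and lower in Prog than in Res (-1.41 ± 0.23, adjusted p = 4.91e-05). Of all genes, 45.5% were called either way in Res against Veh, 46.3% in Prog against Veh and 72.4% in Prog against Res. The breakdown and receptor counts in Prog against Res lay near the last of these shares. The 5 lists were compared with no other genes by a test.

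In batch 2 no collagen gene separated the groups by the test, and single libraries differed widely. Of the 44, 26 were tested in its 7 libraries, 1 of them (Col9a2) only through its highest group. By limma, 0 collagen genes and 0 of all 11913 genes (0%) were called in the small tumors against Prog_b2, in the large tumors against Prog_b2 or in small against large, with 1399, 165 and 946 genes at an unadjusted p under 0.05. Groups of 2 and 3 libraries leave wide intervals: the change of Col1a1 between small tumors and Prog_b2 was 1.40 ± 1.18, with a 95% confidence interval of -1.44 to 4.25. Col14a1 had the largest such change (3.33 ± 0.71, adjusted p = 0.221), from 1.86, 4.66 and 1.61 FPKM in Prog_b2 to 80.5 and 13.9 in the small tumors, and with all 25 libraries in 1 fit its adjusted p was 0.0319. It was at 6.39 and 5.49 in the large tumors.

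Small tumor 1 held the highest summed fibrillar collagen of the 25 libraries, 11018 FPKM. Col1a1 was at 3379 and 508 in the small tumors, 312, 2049.5 and 189 in Prog_b2 and 364 and 619.8 in the large tumors, and Col3a1 at 4193 and 701, 742, 1485 and 1403 and 744 and 764. Fibrillar chains held 88.0% of the collagen sum in small tumor 1 and 53.0% in small tumor 2. Col6a5 and Col6a6, type VI chains that can take the place of the α3 chain, reached 3.24 and 1.43 FPKM in small tumor 1 and were at most 0.361 and 0.228 elsewhere. The fibroblast marker sum was 2816 and 935 in the small tumors, 655, 424 and 959 in Prog_b2 and 771 and 462 in the large tumors. Prog_b2 2, with Col1a1 at 2049.5, thus had the lowest of these sums. Dpt, Pi16 and Clec3b of the fibroblast list were at 374, 231 and 220.3 FPKM in small tumor 1. The adipocyte marker sum (7 genes) was 486 and 696 in the small tumors, 4.21 and 322 in the large tumors and 7.44 to 44.8 in Prog_b2. The macrophage marker sum was 739.9 and 261 in the small tumors, 113 to 187 in the large tumors and 127 to 212 in Prog_b2. The part of these lists in the collagen levels was not tested.

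Small tumor 2 and large tumor 1 shared another set of collagens. Col2a1 was at 0.0349 and 30.8 in the small tumors and 113 and 0.0288 in the large tumors, and at 0.0415 to 0.153 in Prog_b2. Col11a1 was at 0.603 and 105 in the small and 157 and 2.53 in the large tumors against 18.4, 9.55 and 7.13 in Prog_b2. Col9a2, a FACIT chain of cartilage fibrils, was at 0.807 and 6.55 in the 2 tumors and at most 0.0324 in the other batch 2 libraries. The sum of the 13 cartilage and bone markers was 6115 and 7277 in these tumors. It was 5880 in small tumor 1, 6720.3 in large tumor 2 and 103, 6516 and 5274 in Prog_b2. Spp1 was the most abundant gene of this list, and the library at 103 had no measured Spp1. A rise of the other markers of the list could therefore be hidden in this sum. The Schwann cell marker sum was 285 and 454 in small tumor 2 and large tumor 1 and 23.8 to 123 in the other 5 libraries. The melanocyte lineage sum (8 genes) was 147 and 196 in these 2 tumors and 5.97 to 16.1 in the others. Both lists hold Sox10, which was at 139.6 and 188 and made up most of the melanocyte lineage sum in both tumors. Dct and Mlana of that list were at 0 in the large tumors. The part of these marker genes in the collagen levels was not tested. The libraries were set apart after their values were seen, and no test was made between them and the rest.

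**Figure D5:**
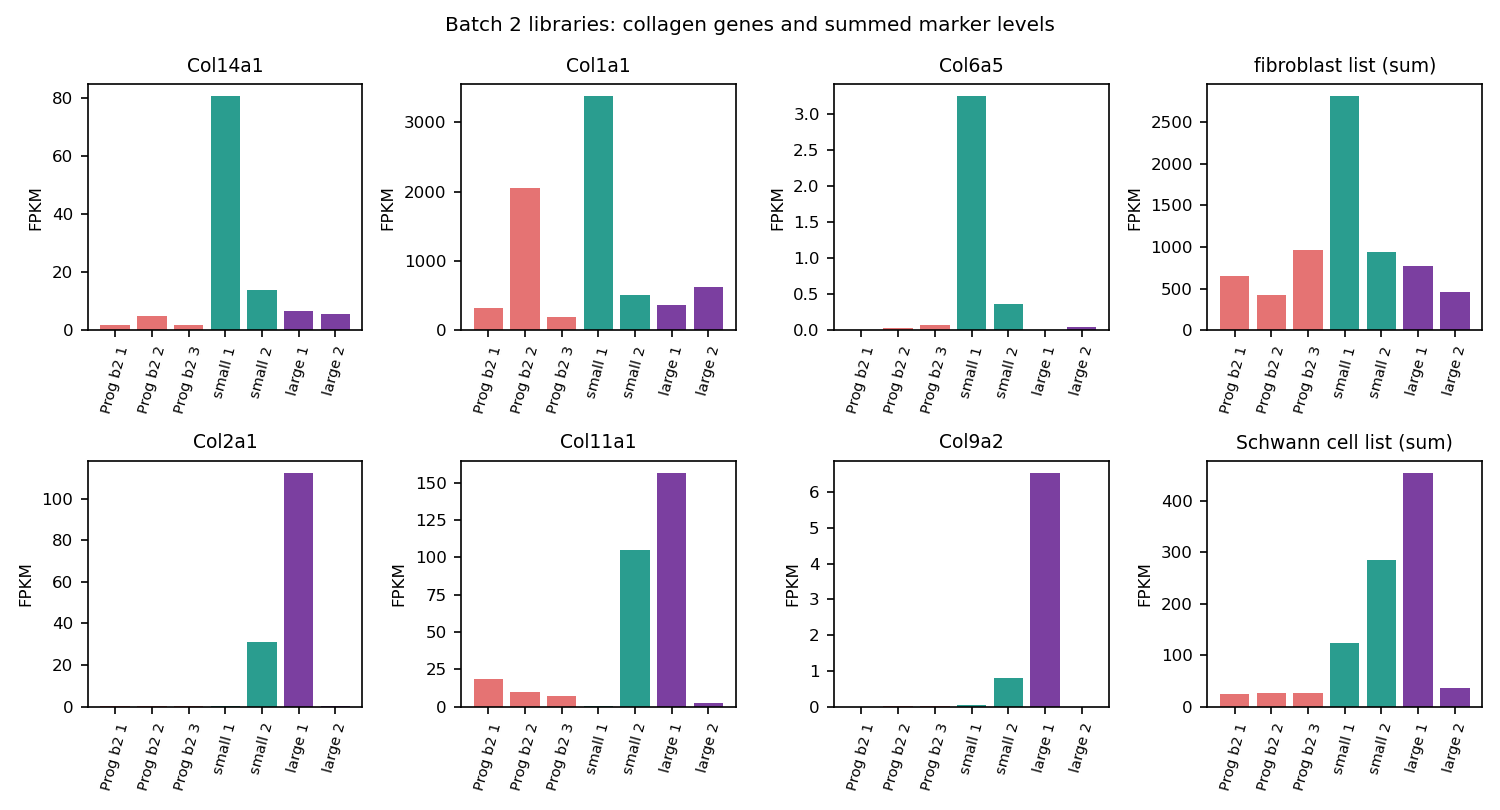
Level in FPKM of 6 collagen genes and the summed FPKM of the fibroblast and Schwann cell marker lists in each of the 7 batch 2 libraries (bars, from 0; colors mark the groups). Col14a1, Col1a1 and Col6a5 peak in small tumor 1 with the fibroblast sum, and Col2a1, Col11a1 and Col9a2 peak in small tumor 2 and large tumor 1 with the Schwann cell sum. Col1a1 is also high in Prog_b2 2, where the fibroblast sum is lowest.

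The resistant tumors of the 2 batches differed in some collagens, in a comparison where batch and group cannot be told apart. In a fit of all 25 libraries 29 collagen genes were tested, and in Prog_b2 against Prog 0 were called higher and 5 lower, beside 2.88% and 6.06% of 12197 genes (8.94% either way). Col23a1 was at 1.29, 6.63 and 3.70 FPKM in Prog_b2, below every Prog library (-2.78 ± 0.39, adjusted p = 0.000278). Col12a1 was at 10.1, 40.5 and 23.9, likewise below every Prog library (-2.12 ± 0.37, adjusted p = 0.00205). Col4a2 (-1.31 ± 0.28, adjusted p = 0.00732), Col4a1 (-1.14 ± 0.29, adjusted p = 0.0188) and Col27a1 (-1.05 ± 0.29, adjusted p = 0.0269) were also lower. These last 3 calls were lost without Prog_b2 1, at adjusted p of 0.0639, 0.131 and 0.147, which left 2 calls. That library had the highest pericyte and smooth muscle marker sum of the 25, 399.6, and the lowest cartilage and bone sum, 103 against at least 1220.4 in the others, with Spp1, the most abundant gene of that list, listed at 0. Against Veh, 5 collagen genes were called higher in Prog_b2 and 0 lower, beside 8.84% and 10.7% of all genes (19.6% either way). They were Col7a1 (2.24 ± 0.73, adjusted p = 0.0355), Col23a1 (1.44 ± 0.41, adjusted p = 0.0176), Col6a2 (1.08 ± 0.27, adjusted p = 0.00961), Col6a1 (0.82 ± 0.24, adjusted p = 0.02) and Col5a2 (0.75 ± 0.25, adjusted p = 0.0421). Col7a1 was at 19.0, 38.0 and 14.2 in Prog_b2, all above Veh, as in Prog. Each of these 5 calls was lost in at least 1 leave-one-out fit, and the count ranged from 1 to 7. It was 1 without Prog_b2 2, 2 without Prog_b2 1 and 3 without any of Veh 1, 2 or 4, and it was 1 without the 3 libraries high in keratinocyte markers. Col4a5 and Col4a6 were at 8.60, 6.69 and 16.8 and 5.76, 1.73 and 7.87 in Prog_b2. Their means lay between those of Veh and Prog, and neither gene was called against either group. Col4a1 and Col4a2 were at 85.4, 221 and 110 and 41.0, 116 and 70.7 in Prog_b2. The means of Col4a1 and Col4a2 there were below those of Veh, and neither was called against Veh. Col5a2 alone was called higher among the 10 fibrillar chains tested in Prog_b2 against Veh. Col1a1 (1.41, adjusted p = 0.114 by limma) and Col12a1 were not called, and Col12a1 overlapped Veh.

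The change between small and large tumors on the antibody combination was set against that between Res and Prog, which are residual and resistant tumors without the antibody. For 2 of the 29 tested collagen genes the difference of these differences was called, both in the positive direction, and none in the negative, beside 8.81% and 6.20% of all genes (15.0% either way). For Col23a1 it was 3.32 ± 0.63, adjusted p = 0.00434. The gene was at 1.08 and 0.782 in small and 1.37 and 3.00 in large tumors, a far smaller gap than between Res and Prog. For Col5a3, at 91.3 and 48.4 in small and 44.3 and 64.0 in large tumors, it was 2.07 ± 0.66, adjusted p = 0.0394, and that call was lost without any of Prog 1, 3 or 5, Res 2, 3 or 4 or any single antibody library, at adjusted p of 0.0517 to 0.166. For Col4a5 and Col4a6 the batch 2 libraries overlapped, with 23.1 and 12.2 and 8.07 and 6.62 in small and 39.2 and 4.07 and 31.3 and 0.963 in large tumors. In the large tumors both genes were high in tumor 1 and low in tumor 2.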

How the data were processed

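RNA of 25 tumor biopsies was extracted with a mirVana kit and made into unstranded, poly(A)-enriched TruSeq libraries, read as pairs of 100 bases, per the labels' protocols. The authors deposited FPKM for 23940 gene symbols. Per the submitters' processing notes, the build was mm9 and TopHat, TopHat2, Cuffnorm and Cuffdiff were used, without stated versions or roles. The deposited FPKM had been scaled across libraries by the authors: median-of-ratio size factors computed here lay between 0.954 and 1.04. In 9 of the 25 columns, all of batch 1, the digits looked like means of a pair of values. Depth is unknown. In the other 16 columns the FPKM that 1 fragment is worth, estimated over 1187 low genes, spanned 1.65-fold, and low FPKM are less precise. Exact zeros can be failed estimates.

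Genes averaging 1 FPKM or more across the libraries fitted were compared as log2(FPKM + 1) by limma 3.58.1, run in R 4.3.3 (lmFit, contrasts.fit and eBayes with a variance trend, 1 term per group, two-sided), with Benjamini-Hochberg adjustment across every gene in the fit. Comparisons within batch 1 used its 18 libraries, those within batch 2 its 7, and those across batches all 25. The fits were tested on simulated data. Levels are means ± SD over libraries. Alternatives were a pseudocount of 0.1, no filter on low values, rescaling by size factors, a block for replicate numbers, weights per library, the compared groups only, all 25 libraries, a term for the 9 columns, leaving out the 3 libraries with high keratinocyte markers, and leaving out each library. Python 3.11.15, numpy 2.4.6, pandas 2.3.3 and matplotlib 3.10.9 were used for tables and plots. Upstream sequences came from RefSeq on GRCm38.p6.

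The collagen genes, the marker and pathway lists and the tests were chosen with earlier results of these data known. The chains to name were, in each comparison, the called ones whose libraries did not overlap between groups, up to 6 rises and 6 falls, and, whatever their change, 20 chains (Col1a1, Col1a2, Col2a1, Col3a1, Col4a1, Col4a2, Col5a1, Col5a2, Col6a1, Col6a2, Col6a3, Col7a1, Col8a1, Col10a1, Col11a1, Col12a1, Col14a1, Col15a1, Col17a1 and Col18a1), whose changes are given in the main comparisons and otherwise by counts. From each pathway list at most 4 members with the smallest adjusted p were eligible. Other chains and the marker genes were named after their values were seen.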

Additional observations from a re-analysis of the deposited data

Results flagged for a closer look

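In groups of 4 or 5 libraries, 72 combinations of a collagen gene and a group were examined for a single library far from the rest by Dixon's test, which flags about 1 in 20 by chance, and 6 were found. Veh 4 held Col4a2 at 129.5 FPKM, with the next library at 73.0. Veh 3 held Col15a1 at 34.4, with the next at 125. Res 1 held Col8a1 at 28.3, with the next at 14.2, and Col17a1 at 8.67, with the next at 0.358. Prog 1 held Col10a1 at 6.43, with the next at 0.147, and Col14a1 at 4.85, with the next at 1.32. The keratinocyte marker sum was 751 in Res 1, and at most 15.6 in the other Res libraries; its part in these values was not tested.

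The difference between the contrasts of residual and resistant tumors with and without the antibody against PD-L2 was called for Col23a1 (3.32 ± 0.63, adjusted p = 0.00434 by limma) and for Col5a3 (2.07 ± 0.66, adjusted p = 0.0394). The antibody arms hold 2 libraries each and lie in another batch than Res and Prog, so that batch and antibody cannot be told apart in this difference.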

How the results depend on the processing

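Within batch 1 the counts of collagen genes called stayed within 1.5 times the reported ones under every alternative, with 12 to 16 in Res against Veh, 17 to 19 in Prog against Veh, 11 to 13 in Res against Reg, 15 to 18 in Prog against Reg and 15 to 19 in Prog against Res when single libraries were left out. The count stayed at 0 in Reg against Veh. Of 80 calls of named genes over the 12 comparisons 62 were kept in every alternative, 18 were lost in at least 1 and 0 reversed. Prog_b2 against Veh was the least stable: its 5 calls became 3 with no filter on low values, with the replicate block, with library weights and with the compared groups only, 1 without the 3 libraries with high keratinocyte markers and 0 with a term for the 9 mean-like columns, and ranged from 1 to 7 when single libraries were left out. Prog_b2 against Prog ranged from 2 to 6 calls in the same way. The tested difference between the contrasts with and without the antibody gave 4 calls with no filter and 1 to 5 with single libraries left out, and small tumors against Prog_b2 gave 1 call with all 25 libraries in the fit. The cause of these shifts was not tested. Size factors moved the share of calls over all genes that were higher from 32.2% to 55.3% in Prog_b2 against Prog and from 45.1% to 59.9% in Prog_b2 against Veh.

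Over 31 pairs of same-numbered libraries the correlation of their deviations from the group means ran from -0.52 to 0.38. The median was -0.02, and 8 exceeded 0.1. Over 106 pairs with different numbers it ran from -0.52 to 0.57, with a median of 0.02 and 27 over 0.1. Deviations from the means of groups this small are tied to each other, so these values cannot show whether the numbers pair the samples. The replicate block gave 15 calls in Res against Veh, 18 in Prog against Veh, 13 in Res against Reg, 16 in Prog against Reg, 18 in Prog against Res, 5 in Prog_b2 against Prog and 2 for the difference.

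Arms of 2 or 3 libraries, FPKM without read counts, and batch lying with group across batches limit these results. A lone library left in an arm was assumed to vary like the other groups.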
